A study of Homo sapiens with 4 samples.

Results

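The genes described here are 30 targets of the transcription factor p53, measured in T-47D cells given an artificial microRNA. T-47D is an established breast cancer line of the luminal type that carries hormone receptors. The data are 4 exon arrays: 2 from cells transfected with a mimic of the microRNA p-27-5p at 200 nM, and 2 from cells that received a pre-miR negative control, for which the labels give no dose of its own. All 4 samples came from the same line, transfected with the reagent TurboFect, and the labels give no time of harvest. The genes were taken by name from a fixed list of p53 targets, through every probeset (a set of probes that reads about an exon) whose annotation names exactly 1 of them. TIGAR was listed as C12orf5 and DRAM1 as DRAM. All 30 genes were found, on 338 of the 232479 probesets of the table, and all 30 were among the 15719 genes tested. Of their probesets, 306 reached the minimum level of 4.08 (log2) that was set to leave out dim probesets.

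p53 is a transcription factor that is stabilised by DNA damage and other stress and that switches on genes of growth arrest, DNA repair, cell death and metabolism. MDM2, a ubiquitin ligase induced by p53, destroys p53 and closes a feedback loop. Many of the genes below can also be driven by other transcription factors. p53 binds DNA through a pair of 10-base motifs, called decamers here, that read alike on both strands.

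Windows of 300 bases around annotated start sites, 250 before and 50 after, were searched for the p53 decamer consensus (RefSeq, build GRCh38.p14). Only exact matches to the consensus were counted, so sites with a mismatch or outside the windows were not sought. At least 1 window was found for 25 of the 30 genes, 37 windows in all. FBXO22, GADD45A, PHLDA3, RRM2B and TP53INP1 had none in the table used and were not searched. A decamer was present in 6 of these windows (16.2%), of AEN, DDB2, EI24, FDXR, PLK2 and SESN1, and in 6.63% of 35116 windows of all genes. A pair of decamers at most 13 bases apart was present in 1 window of these genes, that of DDB2, and in 10 windows of all genes (0.0285%). The DDB2 site and stretches of the windows of SESN1, PLK2 and FDXR are shown. Their changes between mimic and control, given below, were below 0 except that of PLK2. AEN and EI24 also had a decamer and are not shown. Capitals mark the decamers. The DDB2 site lies at chr11:47214979-47214999 on the plus strand, starting 5 bases past the start site. The stretches of SESN1 (chr6:109009008-109009057), PLK2 (chr5:58460189-58460238) and FDXR (chr17:74872995-74873025) lie on the minus strand, and their decamers begin 49, 132 and 11 bases before the start site. A match is a description of the letters and not evidence of binding.
DDB2: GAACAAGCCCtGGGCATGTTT
SESN1: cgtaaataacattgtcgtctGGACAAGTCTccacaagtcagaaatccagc
PLK2: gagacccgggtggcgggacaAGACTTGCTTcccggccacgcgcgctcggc
FDXR: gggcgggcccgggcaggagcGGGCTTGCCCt

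Of the 30 p53 targets, 1 fell with the mimic, 29 did not pass the threshold and none rose. The gene that fell was TP53INP1, at a level 2.53-fold lower in mimic arrays. The 1 call of 30 (3.33%) stands beside 2.31% of all genes tested, of which 1.52% rose and 0.789% fell, so the share called was close to that of all genes. The 30 changes ran from -1.34 for TP53INP1 to 0.59 for TIGAR on the log2 scale, 14 above 0 (50.3% of all genes were) and 16 below, with a median of -0.02. The median over all genes was 0.00. At an unadjusted p under 0.05, 10 of the 30 differed (33.3%, against 20.4% of all genes), 3 of them higher and 7 lower in mimic arrays, against 7.65% and 12.8% of all genes. Both mimic arrays lay above both control arrays in 7 of the 30 (23.3%) and below both in 12 (40%), against 20.5% and 29.5% of all genes. Tests are limma's, two-sided, with Benjamini-Hochberg adjustment over all 15719 genes and a threshold of 0.05. The labels do not state separate cultures for the replicate arrays. The p-values therefore cover the spread among these 4 arrays, which may be technical.

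**Figure D1:**
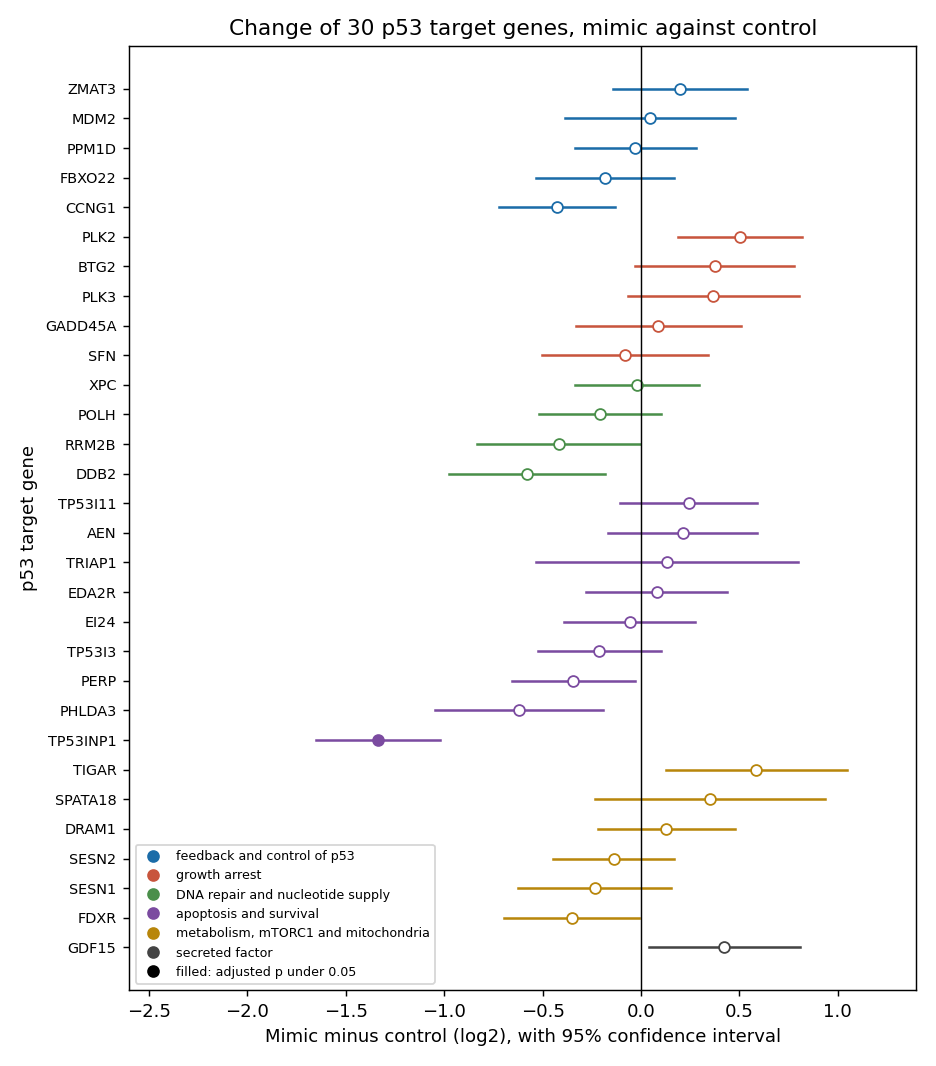
Mimic minus control (log2) for each of the 30 p53 target genes, grouped by role, with limma's 95% confidence interval as a line. The filled point is TP53INP1, the 1 gene past the threshold, at -1.34, and the open points lie between -0.62 for PHLDA3 and 0.59 for TIGAR.

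TP53INP1 (Entrez gene 94241, on chromosome 8) encodes a stress-induced protein that promotes the phosphorylation of p53, autophagy and cell death. Its log2 level was 8.32 and 8.35 on the control arrays and 7.07 and 6.93 on the mimic arrays. The groups were far apart and each was tight, with an SD of 0.024 in control and of 0.101 in mimic arrays (n = 2 each). The gene fell by 1.34 on the log2 scale (SE 0.125, 95% confidence interval -1.65 to -1.02), with a limma adjusted p of 0.00998. It missed the threshold without mimic replicate 2, at a change of -1.27 and an adjusted p of 0.0512. All 7 of its probesets had a change below 0, and on 6 of them the mimic arrays were both the lower ones. The brightest probeset fell by 1.69, from 9.68 to 7.99, with an adjusted p of 0.0302 over all probesets, and another fell by 1.69 with an adjusted p of 0.0358. Neither of these probesets passed with the replicate block or with any of the 4 arrays left out. The dimmest of the 7, at 5.92 in control arrays, had -0.24 and its groups overlapped.

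None of the 5 genes that act back on p53 passed. MDM2 had log2 levels of 9.45 and 9.77 on the control arrays and 9.53 and 9.78 on the mimic arrays. The groups overlapped, and replicate 2 was the higher array in each. The difference was 0.05 (SE 0.171, 95% confidence interval -0.39 to 0.48, adjusted p = 0.907), and its sign turned without mimic replicate 2 (-0.08), without control replicate 1 (-0.11) and with the median of probesets (-0.06). PPM1D, the phosphatase that removes activating phosphates from p53 and its kinases, had -0.03 with overlapping groups. CCNG1, cyclin G1, which recruits a phosphatase to MDM2, had 9.91 and 9.93 on the control arrays and 9.50 and 9.49 on the mimic arrays. Its groups did not overlap, and the SD within each was 0.018 or less. The difference of -0.43 (SE 0.117) had an unadjusted p of 0.0134 and an adjusted p of 0.135, and it passed with an intensity trend in limma's variance (adjusted p = 0.0228). All 16 probesets of CCNG1 were below 0, and the brightest had -0.72. FBXO22, a ubiquitin ligase subunit, had -0.18, and ZMAT3, a zinc-finger protein that binds RNA, had 0.20. With the median of its probesets on each array FBXO22 had 0.03.

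Of the 5 genes of growth arrest, 4 were above 0 and none passed. PLK2, a polo-like kinase induced by stress, had log2 levels of 10.38 and 10.51 on the control arrays and 10.92 and 10.97 on the mimic arrays. The mimic arrays were both higher, and the gap was larger than the spread within either group. The difference was 0.50 (SE 0.124, 95% confidence interval 0.19 to 0.82), or 1.42-fold, with an unadjusted p of 0.00859 and an adjusted p of 0.114. PLK2 passed when dim probesets were kept (adjusted p = 0.0349), and the intensity trend gave it an adjusted p of 0.0129. All 17 of its probesets were above 0, from 0.18 to 0.83, and on 15 of them the mimic arrays lay above both control arrays. Its paralog PLK3 had 5.27 and 4.88 in control and 5.52 and 5.37 in mimic arrays. Those levels are close together and near background, and the difference of 0.37 had an adjusted p of 0.311. It was 0.56 without control replicate 1 and 0.18 without control replicate 2.

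BTG2, which slows growth by promoting the shortening of messenger RNA tails, had 6.40 and 6.24 on the control arrays and 6.85 and 6.53 on the mimic arrays. The mimic arrays were both above the controls but differed from each other by nearly as much as from them. The difference was 0.37 (SE 0.160, adjusted p = 0.275), and over the alternatives it ran from 0.03 to 0.63 and never passed. GADD45A, a stress protein of arrest and repair, had 0.09 and SFN, the 14-3-3 sigma protein that holds back entry into mitosis, had -0.08, both with overlapping groups. The sign of GADD45A turned under 4 of the 14 alternatives and that of SFN under 2.

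The 4 genes of DNA repair and nucleotide supply were all below 0, and none passed. DDB2, which finds ultraviolet damage for nucleotide excision repair and carries the pair of decamers printed above, had 8.04 and 8.31 on the control arrays and 7.49 and 7.70 on the mimic arrays. The groups did not overlap, and arrays of the same replicate number differed by nearly the same amount, at -0.55 and -0.61. Its value of -0.58 (SE 0.156, 95% confidence interval -0.97 to -0.18) had an unadjusted p of 0.0127 and an adjusted p of 0.132. DDB2 passed without a filter (adjusted p = 0.0354), with an intensity trend (0.0329) and without control replicate 1 (-0.71, 0.0333). With its brightest probeset the change was -0.30.

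RRM2B, the p53-induced subunit of ribonucleotide reductase, had 8.66 and 8.93 on the control arrays and 8.25 and 8.50 on the mimic arrays. The groups did not overlap, replicate 2 was higher in each, and arrays of the same replicate number differed by -0.41 and -0.43. The difference was -0.42 (SE 0.163, adjusted p = 0.239). POLH, the polymerase that copies past ultraviolet lesions, had -0.21, with both mimic arrays below both controls. It had 0.18 with the median of its probesets on each array. XPC, the damage sensor of nucleotide excision repair, had -0.02 over 23 probesets whose own changes ran from -1.36 to 0.70, and 0.22 with their median.

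**Figure D2:**
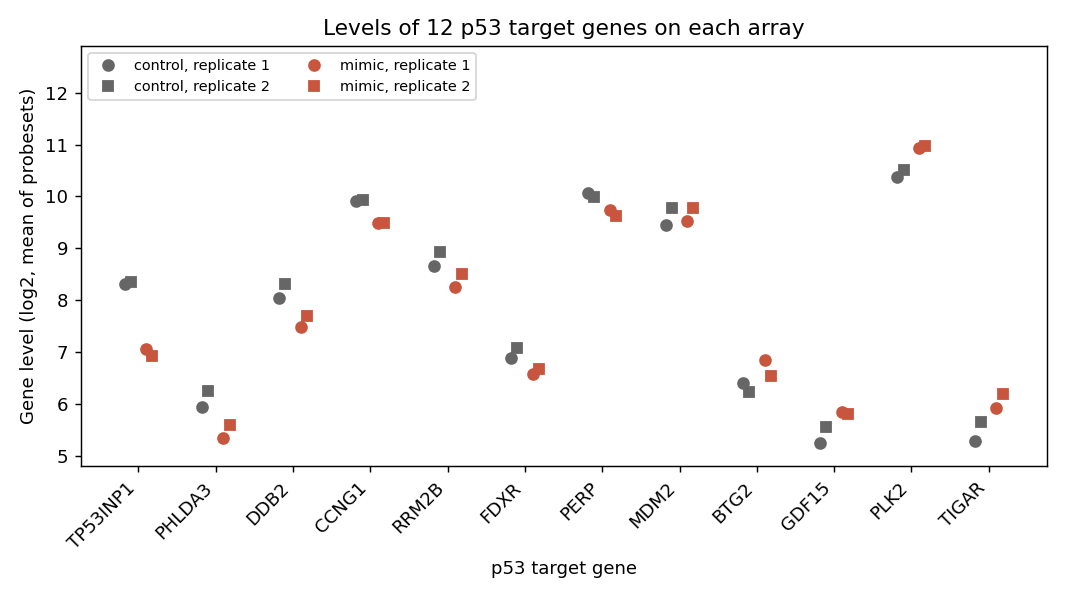
Log2 gene level of 12 p53 target genes on each of the 4 arrays, controls in grey and mimic arrays in red, replicate 1 as circles and replicate 2 as squares. TP53INP1 drops from 8.32 and 8.35 to 7.07 and 6.93, while the 4 arrays of MDM2 overlap between 9.45 and 9.78.

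Among the 9 genes of apoptosis and survival, TP53INP1 fell, 8 did not pass and 4 were above 0. PHLDA3, which blocks the kinase AKT at the membrane, had 5.94 and 6.24 on the control arrays and 5.34 and 5.60 on the mimic arrays. The groups did not overlap, and the mimic levels lay in the range of genes near background. The difference was -0.62 (SE 0.169, adjusted p = 0.135), and PHLDA3 passed without a filter (adjusted p = 0.0335) and without control replicate 1 (-0.77, 0.0246). Its 5 probesets were all below 0. PERP, a membrane protein of desmosomes, had 10.07 and 9.99 on the control arrays and 9.74 and 9.63 on the mimic arrays, and all 5 of its probesets had both mimic arrays below both controls. The change of PERP was -0.34 (SE 0.124, adjusted p = 0.21), and -0.14 on its brightest probeset. TP53I3, a quinone oxidoreductase and with 11.51 in control arrays among the brightest of the 30, had -0.21.

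TP53I11 had 0.24, with both mimic arrays above both controls on 8 of its 12 probesets. AEN, a nuclease of apoptotic cells, had 0.21 on its gene level and -0.08 on its brightest probeset. TRIAP1, a mitochondrial protein that favours survival, EDA2R, a receptor of the TNF receptor family, and EI24, a protein of the endoplasmic reticulum, had 0.13, 0.08 and -0.06, all with overlapping groups. TRIAP1 and EI24 each changed sign under 3 of the 14 alternatives and EDA2R under 2. The SE of TRIAP1, 0.263 on 3 probesets, was the largest of the 30.

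Genes of metabolism and mitochondria went both ways, 3 above 0 and 3 below, and none of the 6 passed. TIGAR, a phosphatase that lowers glycolytic flux, had 5.29 and 5.65 on the control arrays and 5.92 and 6.19 on the mimic arrays. The mimic arrays were both higher, by 0.63 and 0.54 between arrays of the same replicate number, but the controls also differed by 0.36. The difference was 0.59 (SE 0.182, 95% confidence interval 0.13 to 1.04), or 1.5-fold, with an adjusted p of 0.166, and all 9 probesets were above 0. TIGAR passed without control replicate 2 (0.77, adjusted p = 0.043) and had 0.40 without control replicate 1. FDXR, the mitochondrial ferredoxin reductase, had 6.88 and 7.08 in control and 6.57 and 6.68 in mimic arrays, a difference of -0.35 (SE 0.135, adjusted p = 0.235).

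The sestrins SESN1 and SESN2, stress proteins that restrain the growth kinase mTORC1, were both below 0. SESN1 had 5.75 and 5.79 on the control arrays and 5.69 and 5.37 on the mimic arrays. Mimic replicate 1 lay close to the controls and replicate 2 well below them. The difference was -0.24 (SE 0.153, adjusted p = 0.454). SESN2 had -0.14, and 0.12 with its brightest probeset. The change of SESN1 ran from -0.40 to -0.08 over the alternatives. DRAM1, a lysosomal protein of autophagy, had 0.13 on 2 probesets that went opposite ways, at 0.50 and -0.24, and 0.02 without mimic replicate 1. SPATA18, which acts in mitochondrial quality control, had 4.93 and 4.32 on the control arrays and 5.08 and 4.87 on the mimic arrays, a level near background on 2 probesets. Its 0.35 had an adjusted p of 0.459, and the value rested on single arrays. It passed without control replicate 1 (0.66, adjusted p = 0.0456), but was 0.04 without control replicate 2 and 0.05 when dim probesets were kept.

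GDF15, the secreted stress hormone of the TGF-beta superfamily, had 5.25 and 5.56 on the control arrays and 5.85 and 5.81 on the mimic arrays. The mimic arrays agreed closely and lay above both controls, which differed by more. The difference of 0.42 (SE 0.152, 95% confidence interval 0.04 to 0.81) had an unadjusted p of 0.0364 and an adjusted p of 0.21. Of its 7 probesets, 6 were above 0 and on 3 of them the groups did not overlap. GDF15 did not pass under any of the 14 alternatives, with a change between 0.27 and 0.58.

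Read by single probesets, 127 of the 306 were above 0 and 179 below. The 2 that passed (0.654%) were both of TP53INP1 and fell, against 0.883% of all probesets, of which 0.795% rose and 0.0881% fell. With the replicate block none of the 306 passed, against 0.681% of all probesets in that fit, and with an intensity trend 20 did (6.54%, against 2.76% of all). Both mimic arrays lay above both controls on 71 probesets (23.2%) and below on 97 (31.7%), against 21% and 26.8% of all. The probesets of CCNG1, DDB2, PERP, PHLDA3 and TP53INP1 were all below 0, and those of PLK2 and TIGAR all above. ZMAT3 was the opposite case, with 7 probesets above 0, 5 below and a range from -0.70 to 0.70.

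**Figure D3:**
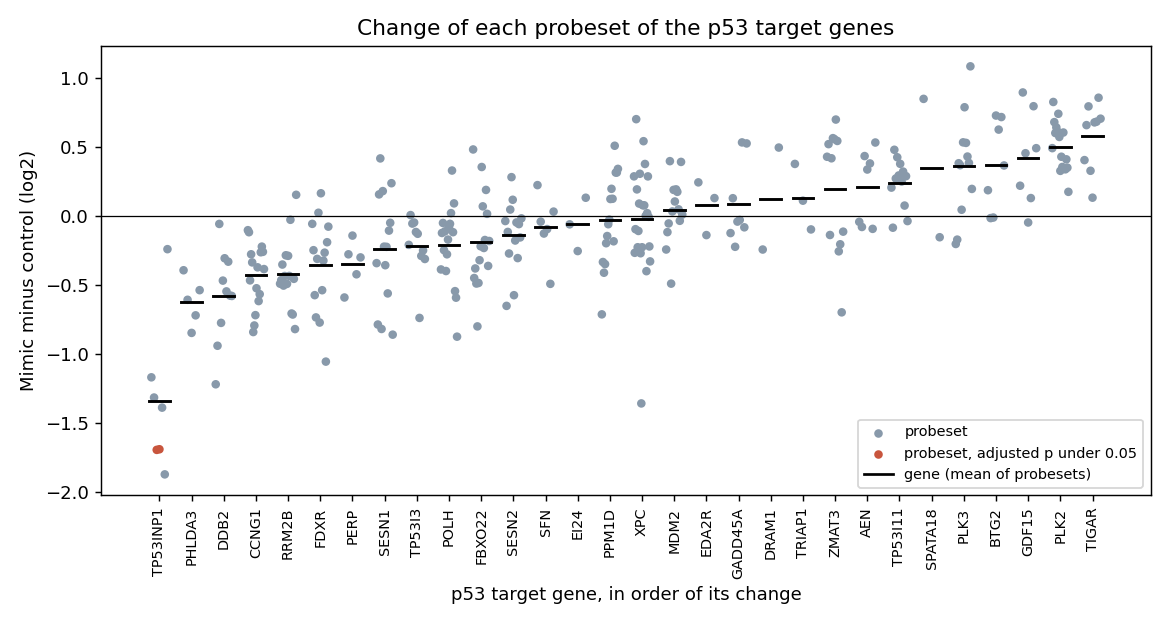
Mimic minus control (log2) of the 306 probesets, 1 point each, for the 30 p53 target genes in order of their gene-level change, which is drawn as a black bar. The 2 red points are the probesets past the threshold, both of TP53INP1, and the points of XPC spread from -1.36 to 0.70 about a gene value of -0.02.

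Level and change were related over all genes. The median change was 0.14 among 2816 genes with a mean level under 5 (log2), -0.09 between 7 and 8, and -0.17 among 703 genes above 10. After quantile normalization these medians were 0.07, -0.05 and -0.13. Beside the genes of their own level range, 11 of the 30 p53 targets lay above the upper quartile of the change, 8 below the lower quartile and 11 between. PLK2 stood apart most clearly among the higher ones, 0.67 above the median of genes over level 10, whose upper quartile was -0.01. Relative to the medians of their own level ranges, TP53INP1, PHLDA3 and DDB2 had -1.25, -0.71 and -0.49, and TIGAR and GDF15 had 0.49 and 0.33. The quantile-normalized changes of PLK2, TIGAR and TP53INP1 were 0.54, 0.58 and -1.30.

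**Figure D4:**
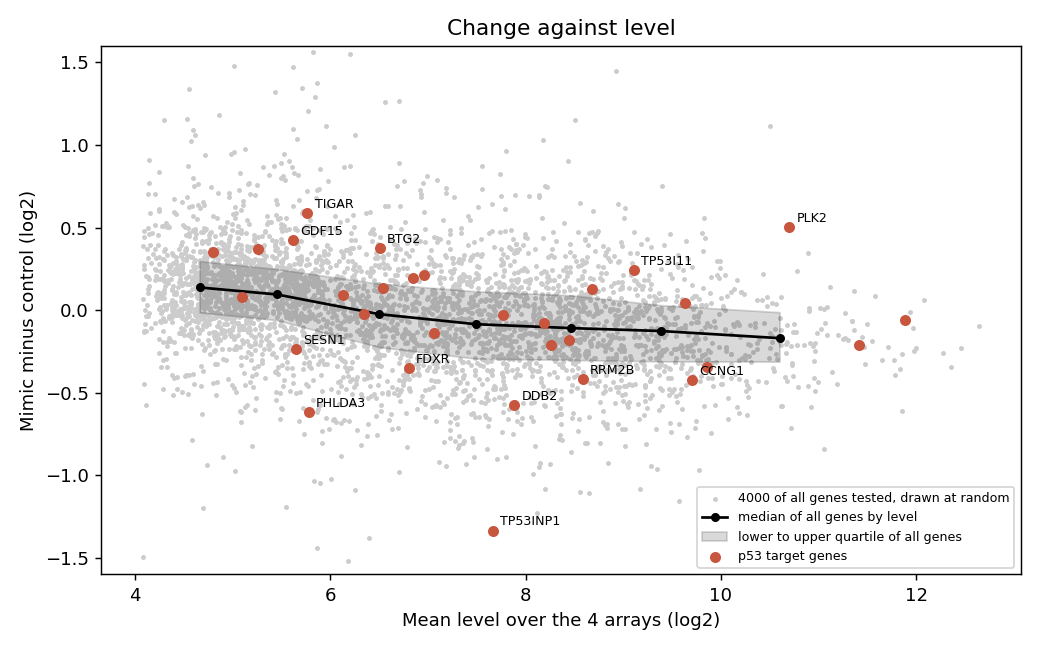
Mimic minus control (log2) against the mean level over the 4 arrays (log2). Grey points are a random 4000 of all genes tested, the black line and band are the median and quartiles of all genes by level, and red points are the p53 targets. Genes beyond 1.6 in either direction are not drawn. The median falls from 0.14 at low to -0.17 at high levels, and PLK2 lies above the band and TP53INP1 below it.

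Liver and neuron genes served as a guide to signal near background. Of 13 measured, 12 had a control level of at most 5.71, and SYT1 had 6.85. Control levels of 5 p53 targets, EDA2R, GDF15, PLK3, SPATA18 and TIGAR, lay within 5.71. Mimic levels of 5, EDA2R, PHLDA3, PLK3, SESN1 and SPATA18, did so as well.

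Other genes of the pathway came from 2 lists. Of 28 measured regulators and cofactors of p53, none passed with limma, and 7 (25%) differed at an unadjusted p under 0.05, 3 higher and 4 lower, against 20.4% of all genes. Their median change was 0.03. TP63, a relative of p53, had 4.73 and 4.46 on the control arrays and 5.38 and 5.36 on the mimic arrays, a difference of 0.78 (SE 0.142, adjusted p = 0.0671) at levels near background. TP63 passed with quantile normalization (adjusted p = 0.0438), without a filter (0.0203) and without control replicate 1 (0.91, 0.00757). The DNA damage kinases PRKDC and CHEK1 had -0.53 and -0.63, with adjusted p of 0.157 and 0.166, and both passed with an intensity trend and without control replicate 1. MDM4, the partner of MDM2, had -0.08.

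Of 37 further p53 targets measured, 2 rose and 1 fell (8.11%), beside 2.31% of all genes, and the median was 0.07. TRIM22, an antiviral protein induced by interferon as well as by p53, had 3.35 and 3.42 on the control arrays and 9.39 and 9.84 on the mimic arrays, and rose by 6.23 (SE 0.183, adjusted p = 0.000215). Its control level lay below the 4.08 set as the minimum for probesets. The rise is therefore measured against a signal near background, and its size is uncertain. That minimum applied to the mean over the 4 arrays, and the gene level of TRIM22, which counts in the 8.11%, exceeded it only on the mimic arrays. PMAIP1, the BH3-only protein NOXA, also induced by interferon, had 4.94 and 4.96 on the control arrays and 6.77 and 6.87 on the mimic arrays, and rose by 1.87 (SE 0.121, adjusted p = 0.00237). The control level of PMAIP1 also lay within 5.71. A separate reference list of interferon-stimulated genes, which holds neither of them, had 9 of 9 measured genes that rose, by 3.07 to 7.66, and its part in these values was not tested. CYFIP2, a p53-induced part of the complex that controls actin, had 8.08 and 8.12 on the control arrays and 7.18 and 7.13 on the mimic arrays. It fell by 0.95 on the log2 scale (SE 0.119, adjusted p = 0.0264), but missed the threshold when mimic replicate 1 (adjusted p = 0.143) or mimic replicate 2 (0.156) was left out, and with its brightest probeset (0.143). CDKN1A, which encodes the cell cycle inhibitor p21, and the cell death genes BAX and BBC3 had 0.01, 0.11 and 0.27 and did not pass. The death receptors TNFRSF10B and FAS had 0.50 and 0.39, with adjusted p of 0.115 and 0.198. Other cell death genes among the further p53 targets went the other way. APAF1, PIDD1 and CASP6 had -0.55, -0.22 and -0.12, and the adjusted p of APAF1 was 0.148. The receptors TNFRSF10A and TNFRSF10C had 0.14 and 0.07, and none of these genes passed.

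The arrays carried the markers of luminal epithelium. All 12 listed markers were measured, at control levels from 8.97 to 12.40, none passed, and their median change was -0.17. At an unadjusted limma p under 0.05, 4 of the 12 (33.3%) were lower and 0 higher, against 12.8% and 7.65% of all genes. Both mimic arrays lay below both controls in 6 (50%) and above both in 1 (8.33%), against 29.5% and 20.5% of all genes. These shares of all genes cover every level, while the markers are bright. Among all genes the median change was -0.13 at mean levels from 9 to 10 and -0.17 above 10. Of 5 basal or mesenchymal, 4 leukocyte, 6 fibroblast and 4 endothelial markers measured, control levels lay between 4.19 and 7.17 and none passed. Their median changes were 0.14, 0.15, 0.22 and 0.21, and their part in the results was not tested. All genes had medians of 0.14 at mean levels under 5, 0.09 from 5 to 6 and -0.02 from 6 to 7. Across all probesets the arrays correlated with r of 0.985 within mimic, 0.984 within control and 0.966 to 0.973 between groups.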

How the data were processed

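The deposited table holds log2 values of Affymetrix exon-array probesets, 1 column per array. The submitters' processing notes name Partek, RMA and hg18, with no versions or order of steps. RMA usually equalises array distributions, but the interquartile range of these deposited log2 values ran from 4.18 to 4.52. Symbols are those of the platform annotation held by GEO (216780 probesets with 1 symbol, 2335 with several, 13364 unnamed), and the symbols of 25755 probesets were updated through RefSeq synonyms. Probesets with several symbols were left out. Positions of probesets were not used here.

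A gene's value is the mean of its probesets whose mean over the 4 arrays was at least 4.08, the 25th percentile of the table. Groups were fitted with limma 3.58.1 in R 4.3.3 (lmFit, eBayes), with 2 residual degrees of freedom (5.29 after moderation). SE is limma's moderated standard error and SD that of a group's own arrays. The fit was tested on simulated data. Plots used matplotlib 3.10.9 in Python 3.11.15. The number of arrays limits the precision, and a gene that did not pass is not thereby shown to be unchanged.

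The members and lists were chosen with earlier results of these data known. By rule, every p53 target is named, and from both other pathway lists the genes past the threshold and the 3 with the smallest p. MDM4, CDKN1A, BAX, BBC3, FAS, TNFRSF10B, APAF1, PIDD1, CASP6, TNFRSF10A, TNFRSF10C and SYT1 were chosen after their values were seen. The series describes mimic and control samples as paired, without stating that replicate numbers mark the pairs, and the replicate differences of the groups correlated over genes with r = 0.435 (0.715 over the 30 targets; genes are not independent replicates). A fit with the replicate number as a block was run as an alternative. The others were quantile normalization, equal array medians, no or a stricter filter, other gene summaries, an intensity trend, robust hyperparameters, listed symbols, and leaving out each array.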

Additional observations from a re-analysis of the deposited data

How the results depend on the processing

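The limits are those of 4 arrays and of signal over background. With the replicate block 0 of the p53 target probesets passed, against 2 in the fit reported, and no call of a p53 target gene changed. Of all genes, 498 passed with the block, against 363 in the fit reported. The limma adjusted p of TP53INP1 was 0.0272 with the block, against 0.00998. The next lowest with the block were PHLDA3 (0.0552), DDB2 (0.0593), TIGAR (0.0603) and PLK2 (0.0671). The count of p53 target genes past the threshold was 1 in the fit reported, 4 with no filter and 4 with an intensity trend, and it ran from 0 to 4 when single arrays were left out. The lowest was without mimic replicate 2, and the count was 4 when control replicate 1 and 2 when control replicate 2 was left out. The count of p53 target probesets was 4 with a filter at the table median, 20 with an intensity trend and 0 with any array left out. The median change of the p53 targets was 0.0401 with the filter at the table median, and ran from -0.0954 to -0.0173 with single arrays left out. Of all genes, 1433 passed with no filter, 1594 with an intensity trend, 122 with the brightest probeset, and 172 to 1691 with single arrays left out. The cause of these shifts was not tested.

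The sign turned in 27 cases, in 12 of the 30 genes, none of which passed in either fit. With no filter EDA2R had -0.0426. With the filter at the table median PPM1D had 0.0423 and XPC 0.0468. With the median of probesets on each array MDM2, FBXO22, GADD45A, XPC, POLH, EI24 and TRIAP1 had -0.0587, 0.034, -0.145, 0.217, 0.185, 0.135 and -0.0949. With the brightest probeset GADD45A, XPC, AEN and SESN2 had -0.0263, 0.0038, -0.077 and 0.12. With each array left out in turn, values ran from -0.114 to 0.206 for MDM2, -0.0767 to 0.0201 for PPM1D, -0.0653 to 0.243 for GADD45A, -0.235 to 0.0733 for SFN, -0.0898 to 0.0474 for XPC, -0.134 to 0.018 for EI24, -0.189 to 0.455 for TRIAP1 and -0.0483 to 0.21 for EDA2R. The other 18 genes kept their direction under all alternatives that gave a value, and SPATA18 had none with the filter at the table median.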
